A study of Homo sapiens with 9 samples.

Results

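The Toll-like receptor genes TLR1 to TLR10 were followed in cells of HL-60 clone 15. This human promyelocytic leukaemia line is established in culture and can be driven towards eosinophils. All 10 were measured, each by 1 named probe set, among 14778 named genes on Affymetrix whole-transcript arrays. The members are the family by name. RhoH + 4-OHT arrays came from cells transduced with a lentivirus encoding RHOH, a GTPase of blood cells, and given 100 nM 4-hydroxytamoxifen (4-OHT) to switch it on. RhoH no 4-OHT arrays came from the same transduced cells without the drug. GFP + 4-OHT arrays came from cells with a control construct encoding the fluorescent protein GFP, and the same 100 nM of 4-OHT. Each group had 3 arrays, described in the design text as biological replicates. GFP cells without the drug were not analysed here, so an effect of 4-OHT, of the construct and of the transduced population cannot be told apart. The labels do not say whether a population was a clone or a pool. The study asked which genes RhoH changes.

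Toll-like receptors are membrane proteins that recognise microbial molecules through repeats rich in leucine and signal through a TIR domain inside the cell. TLR2 pairs with TLR1 or TLR6 at the cell surface to recognise bacterial lipopeptides, TLR4 recognises lipopolysaccharide and TLR5 flagellin. TLR3, TLR7, TLR8 and TLR9 sit in endosomes and recognise nucleic acids, and TLR10 is a less understood relative of TLR1 and TLR6. Most of them recruit the adaptor MYD88 and lead to NF-kB activation, and myeloid cells are among their best known sites of expression.

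The series as a whole set some limits. Median log2 signal lay between 5.43 and 5.55 on the 9 arrays, and no 2 arrays were identical. The deposited values are log2 signals from RMA, a method that corrects background, equalises the distributions of the arrays and summarises the probes of a probe set. RHOH itself was at 5.59 ± 0.14 in the arrays labelled RhoH + 4-OHT, 5.21 ± 0.056 in those labelled RhoH no 4-OHT and 5.93 ± 0.021 in those labelled GFP + 4-OHT (log2 signal, SD, n = 3). It was higher with 4-OHT in RhoH cells (0.38, limma adjusted p = 0.0451). Its mean was highest in the GFP cells, an order that goes against the labels. Of the differences from GFP + 4-OHT, that of RhoH + 4-OHT did not pass (-0.33, adjusted p = 0.0717). That of RhoH no 4-OHT did (-0.72, adjusted p = 0.00042). All directions below follow the arrays' labels. Whether the RHOH probe set reads the transcript of the construct was not tested. Of 7 promyelocyte markers 5 were measured, all bright, with MPO and PRTN3 averaging 12.90 and 12.21 over the 9 arrays. The replicate 1 arrays of both RhoH groups and RhoH + 4-OHT replicate 3 deviated most from their group means. The SD of these deviations over all genes was 0.200 to 0.206 there and 0.090 to 0.162 on the other 6 arrays. The 16 measured genes of a list of liver, gut, skin and other tissue genes not expected in blood cells had mean log2 signals from 3.73 (GCG) to 6.52 (CDX2), and none was called. A signal inside that range is not shown to be above background, and a difference from it may be compressed, so no linear fold is given where a group mean lies there. All 3 group means of RHOH lay inside the range.

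The promoters of TLR6, TLR3 and TLR8, which were called in at least 1 comparison, are shown first, with that of TLR2, the partner of TLR1 and TLR6, for contrast. The TLR6 and TLR3 windows carry pattern matches and the TLR8 and TLR2 windows none. RefSeq promoter sequences of build GRCh38.p14 were matched for 7 of the 10 receptors (TLR2, TLR3, TLR4, TLR5, TLR6, TLR8 and TLR9). The 250 bases before the start of TLR6 (chr4:38856818-38857067, minus strand), TLR3 (chr4:186068906-186069155, plus strand), TLR8 (chrX:12906370-12906619, plus strand) and TLR2 (chr4:153684030-153684279, plus strand) read, 5′ to 3′ on the strand of the gene, as follows. Capitals mark matches, on either strand, to the letter patterns described in the next paragraph.
TLR6: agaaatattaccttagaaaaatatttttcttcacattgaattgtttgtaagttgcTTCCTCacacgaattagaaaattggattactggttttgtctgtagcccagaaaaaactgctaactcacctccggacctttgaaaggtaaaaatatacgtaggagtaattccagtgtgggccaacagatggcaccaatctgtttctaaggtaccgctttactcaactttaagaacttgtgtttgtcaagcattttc
TLR3: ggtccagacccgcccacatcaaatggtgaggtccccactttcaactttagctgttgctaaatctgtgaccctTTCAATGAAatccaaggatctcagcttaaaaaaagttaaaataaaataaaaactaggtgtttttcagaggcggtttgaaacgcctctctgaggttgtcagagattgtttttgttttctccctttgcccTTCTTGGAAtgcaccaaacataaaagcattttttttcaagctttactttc
TLR8: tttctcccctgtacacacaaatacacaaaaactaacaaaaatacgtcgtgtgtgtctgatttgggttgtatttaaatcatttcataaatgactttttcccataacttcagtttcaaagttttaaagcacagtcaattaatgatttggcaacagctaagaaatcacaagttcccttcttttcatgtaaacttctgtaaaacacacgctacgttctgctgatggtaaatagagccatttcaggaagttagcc
TLR2: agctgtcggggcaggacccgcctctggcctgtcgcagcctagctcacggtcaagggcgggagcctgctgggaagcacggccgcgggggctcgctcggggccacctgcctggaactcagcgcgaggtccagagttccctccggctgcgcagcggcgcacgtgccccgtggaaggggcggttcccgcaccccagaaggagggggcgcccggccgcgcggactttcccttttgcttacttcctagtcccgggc

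The search covered 6 letter patterns in these windows: a STAT site (TTCNNNGAA), an AP-1 site bound by JUN and FOS (TGANTCA), the core bound by ETS factors such as PU.1 (GAGGAA), where N is any base, and 1 consensus each of the interferon-stimulated response element, the NF-kB site and the oestrogen response element. Both strands were read, and no matches overlapped. The TLR3 window held 2 STAT patterns, TTCAATGAA and TTCTTGGAA, a pattern found in 6.57% of 35116 promoters of the same length. The TLR6 window held 1 ETS core on the opposite strand (TTCCTC), which 23.6% of promoters hold. No pattern matched in the TLR8, TLR2 and TLR5 windows. TLR4 held 4 ETS cores, and TLR9 held 2 together with 1 AP-1 pattern (TGACTCA), which 6.57% of promoters hold. The interferon element (3.02% of promoters), the NF-kB pattern (1.73%) and the oestrogen element (0.0399%) matched in none of the 7 windows. G and C made up 36.4% of the TLR6 window, 39.2% of TLR3, 34.8% of TLR8 and 72.4% of TLR2, against a median of 58.0% over all promoters. A match or its absence describes these letters only.

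Of the 10 receptors, TLR6 differed most between the groups. Its log2 signal was 6.02 on each of the 3 RhoH + 4-OHT arrays, against 4.42, 4.20 and 4.83 on the RhoH no 4-OHT arrays and 7.20, 7.24 and 7.11 on the GFP + 4-OHT arrays. No 2 groups overlapped, with RhoH no 4-OHT lowest and GFP + 4-OHT highest. The 3 RhoH + 4-OHT values were equal to the last deposited digit, as happened in that group for 121 of 14778 genes, so its SD there is 0. The means of both RhoH groups, 6.02 and 4.49, lay inside the range of the tissue-restricted genes, and that of GFP + 4-OHT, 7.18, above it. In RhoH cells TLR6 was higher with 4-OHT (log2 fold change 1.54, SE 0.14, limma adjusted p = 0.000274). Against GFP + 4-OHT it was lower in RhoH + 4-OHT (-1.16, SE 0.14, adjusted p = 0.00134) and lower in RhoH no 4-OHT (-2.70, SE 0.14, adjusted p = 1.86e-06).

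TLR1, the other partner of TLR2, followed the same order. It was at 6.84, 6.83 and 6.94 on the RhoH + 4-OHT arrays, against 5.46, 5.88 and 5.88 on the RhoH no 4-OHT arrays and 7.54, 7.85 and 7.69 on the GFP + 4-OHT arrays. Again no 2 groups overlapped. The RhoH no 4-OHT mean, 5.74, lay inside the range of the tissue-restricted genes, and those of RhoH + 4-OHT and GFP + 4-OHT, 6.87 and 7.69, above it. With 4-OHT in RhoH cells it was higher (log2 fold change 1.13, SE 0.13, limma adjusted p = 0.00104). It was 1.77-fold lower in RhoH + 4-OHT than in GFP + 4-OHT (-0.82, SE 0.13, adjusted p = 0.00608), and lower in RhoH no 4-OHT than in GFP + 4-OHT (-1.95, SE 0.13, adjusted p = 6.61e-06). For both genes the two-sided exact permutation p was 0.1 in each comparison, the smallest that 3 arrays against 3 allow. An order with RhoH no 4-OHT below RhoH + 4-OHT below GFP + 4-OHT and no overlap was seen for 3.82% of all genes, and among the receptors for TLR1 and TLR6. These 2 genes have similar coding sequences, the probes were not available for inspection, and how far each probe set reads the other gene was not tested.

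**Figure D1:**
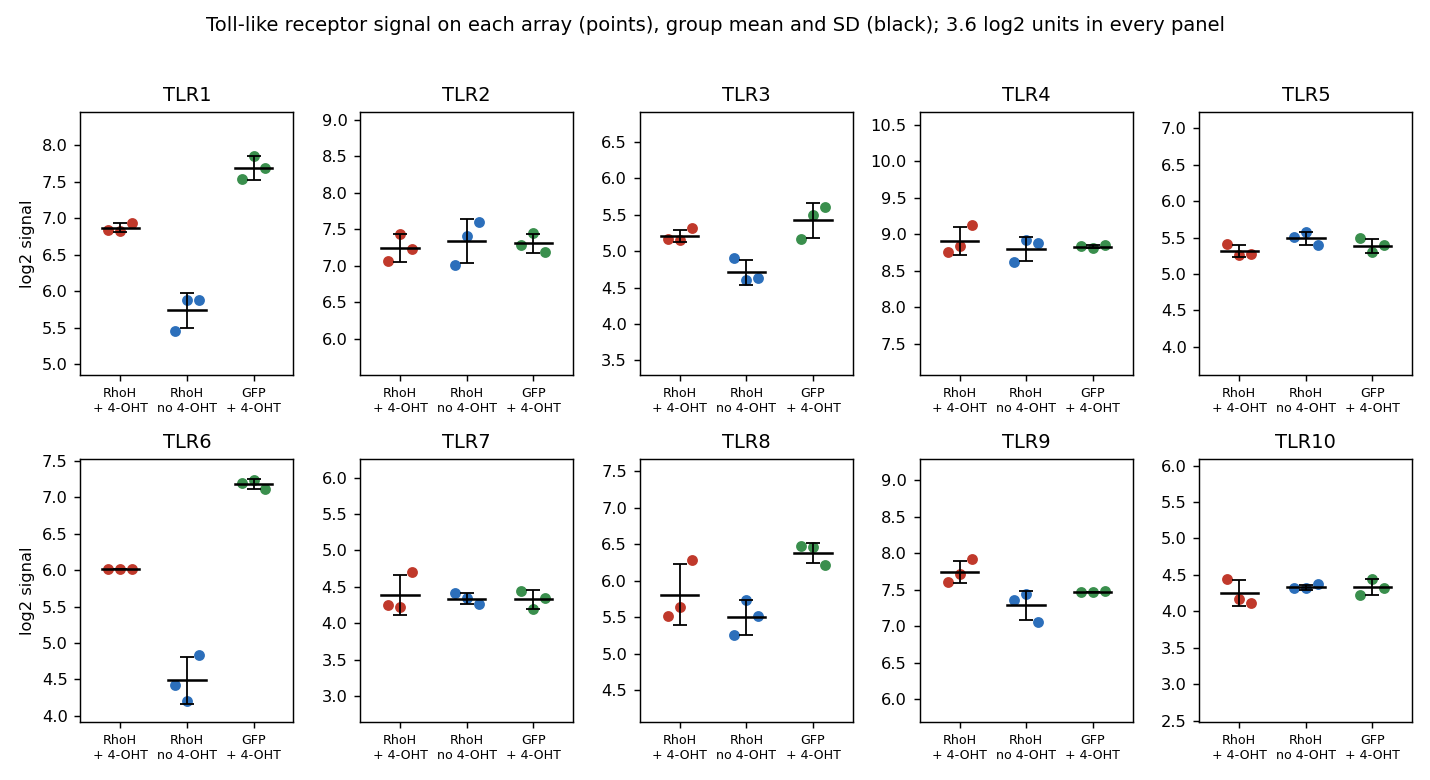
Log2 signal of TLR1 to TLR10 on each array, by group (RhoH + 4-OHT, RhoH no 4-OHT, GFP + 4-OHT), as points, with the group mean and SD in black (n = 3). All panels span the same number of log2 units. TLR1 and TLR6 fall into 3 separate levels. TLR3 and TLR8 have their highest mean in GFP + 4-OHT, where the arrays overlap those of RhoH + 4-OHT. The groups overlap for TLR2, TLR4, TLR5, TLR7 and TLR10.

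TLR2 was not called in any comparison. It was at 7.06, 7.43 and 7.23 in RhoH + 4-OHT, against 7.01, 7.41 and 7.60 in RhoH no 4-OHT and 7.29, 7.45 and 7.19 in GFP + 4-OHT. All 3 groups overlapped. The fold change with 4-OHT in RhoH cells was -0.10 on the log2 scale (95% confidence interval -0.45 to 0.25, limma adjusted p = 0.880). The intervals were -0.42 to 0.28 for RhoH + 4-OHT against GFP + 4-OHT and -0.32 to 0.38 for RhoH no 4-OHT against GFP + 4-OHT. Fold changes of the size seen for TLR1 or TLR6 in the same comparisons lie outside these intervals.

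TLR10, the neighbour of TLR1 and TLR6 on chromosome 4, was at 4.45, 4.17 and 4.12 in RhoH + 4-OHT, against 4.32, 4.32 and 4.37 in RhoH no 4-OHT and 4.23, 4.44 and 4.32 in GFP + 4-OHT. The groups overlapped, and the fold changes were -0.09, -0.08 and 0.01 in the 3 comparisons. Its signal lay inside the range of the tissue-restricted genes. Probe sets differ in brightness, so levels are not ranked between receptors here.

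The other surface receptors showed no change past the threshold. TLR4 was at 8.76, 8.84 and 9.13 in RhoH + 4-OHT, against 8.62, 8.92 and 8.88 in RhoH no 4-OHT and 8.84, 8.81 and 8.85 in GFP + 4-OHT, with all groups overlapping. Its 95% confidence intervals on the log2 scale were -0.16 to 0.37 for induction, -0.18 to 0.34 for RhoH + 4-OHT against GFP + 4-OHT and -0.29 to 0.23 for RhoH no 4-OHT against GFP + 4-OHT. TLR5, the flagellin receptor, was at 5.41, 5.26 and 5.27 in RhoH + 4-OHT, against 5.51, 5.58 and 5.40 in RhoH no 4-OHT and 5.49, 5.30 and 5.40 in GFP + 4-OHT. Its fold changes were -0.18, -0.08 and 0.10, and its signal lay within the range of the tissue-restricted genes.

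Among the endosomal receptors, TLR3, the receptor of double-stranded RNA, was lower in uninduced RhoH cells than in GFP cells. It was at 5.17, 5.15 and 5.31 in RhoH + 4-OHT, against 4.91, 4.60 and 4.63 in RhoH no 4-OHT and 5.16, 5.50 and 5.61 in GFP + 4-OHT. The RhoH no 4-OHT arrays lay below all others, while RhoH + 4-OHT and GFP + 4-OHT overlapped. RhoH no 4-OHT was below GFP + 4-OHT (log2 fold change -0.71, SE 0.13, limma adjusted p = 0.00448). With 4-OHT in RhoH cells the change of 0.50 (SE 0.13, adjusted p = 0.0743) missed the threshold, which it passed after quantile normalization of the named genes (adjusted p = 0.0410). All 3 group means, 4.71 to 5.42, lay inside the range of the tissue-restricted genes.

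TLR8, a receptor of single-stranded RNA encoded next to TLR7 on the X chromosome, was at 5.51, 5.64 and 6.29 in RhoH + 4-OHT. It was at 5.26, 5.74 and 5.52 in RhoH no 4-OHT and at 6.47, 6.46 and 6.22 in GFP + 4-OHT. All 3 group means lay inside the range of the tissue-restricted genes. Of the RhoH + 4-OHT arrays, replicate 3 reached the GFP + 4-OHT values, while RhoH no 4-OHT stayed below them. RhoH no 4-OHT was lower than GFP + 4-OHT (log2 fold change -0.88, SE 0.20, limma adjusted p = 0.0129), a call lost without RhoH no 4-OHT replicate 1, GFP + 4-OHT replicate 1 or GFP + 4-OHT replicate 2 (adjusted p up to 0.0587). RhoH + 4-OHT against GFP + 4-OHT gave -0.57 (SE 0.20, adjusted p = 0.169), and -0.81 with a call when RhoH + 4-OHT replicate 3 was left out (adjusted p = 0.0190).

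TLR9, the receptor of unmethylated CpG DNA, was the 1 receptor with its highest values in RhoH + 4-OHT and no overlap with either other group. It was at 7.61, 7.72 and 7.92 there, against 7.36, 7.44 and 7.06 in RhoH no 4-OHT and 7.47, 7.47 and 7.48 in GFP + 4-OHT. In either direction, 14.5% of all genes had no overlap between RhoH + 4-OHT and RhoH no 4-OHT. Between RhoH + 4-OHT and GFP + 4-OHT it was 22.5%. The share highest in RhoH + 4-OHT without overlap was not counted. The changes of TLR9 did not pass the threshold: 0.47 with 4-OHT in RhoH cells (SE 0.12, limma adjusted p = 0.0609) and 0.28 against GFP + 4-OHT (SE 0.12, adjusted p = 0.272). The first passed with the dimmest 25% of genes left out and with array weights, with adjusted p down to 0.0242. TLR7, which also senses single-stranded RNA, was at 4.25, 4.22 and 4.71 in RhoH + 4-OHT, against 4.41, 4.35 and 4.27 in RhoH no 4-OHT and 4.45, 4.19 and 4.35 in GFP + 4-OHT. Its groups overlapped, its log2 fold changes were 0.05, 0.06 and 0.01, and its signal was in the range of the tissue-restricted genes.

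Counted over the family, 2 of 10 receptors rose and none fell with 4-OHT in RhoH cells by limma, with 4 at an unadjusted p under 0.05, all higher, where 3.78% of all genes were called (3.02% higher and 0.751% lower). Between RhoH + 4-OHT and GFP + 4-OHT, 2 of 10 were lower and none higher (3 lower and 1 higher at an unadjusted p under 0.05), with 4.49% of all genes called (1.74% higher and 2.75% lower). Between RhoH no 4-OHT and GFP + 4-OHT, 4 of 10 were lower and none higher (the same 4 and 0 at an unadjusted p under 0.05), with 15.3% of all genes called (6.01% higher and 9.27% lower). The arrays of both groups were apart for 4, 3 and 5 receptors in these comparisons, beside 14.5%, 22.5% and 37.3% of all genes. The median log2 fold change of the family was 0.21, -0.08 and -0.11, against 0.00, 0.03 and 0.05 over all genes. The comparisons share arrays, so their calls are not independent of each other. The family was chosen with earlier results of these data known, so these shares are no independent support for a change of the family. In bulk RNA, fewer cells that express a receptor and less of its RNA per cell cannot be told apart.

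**Figure D2:**
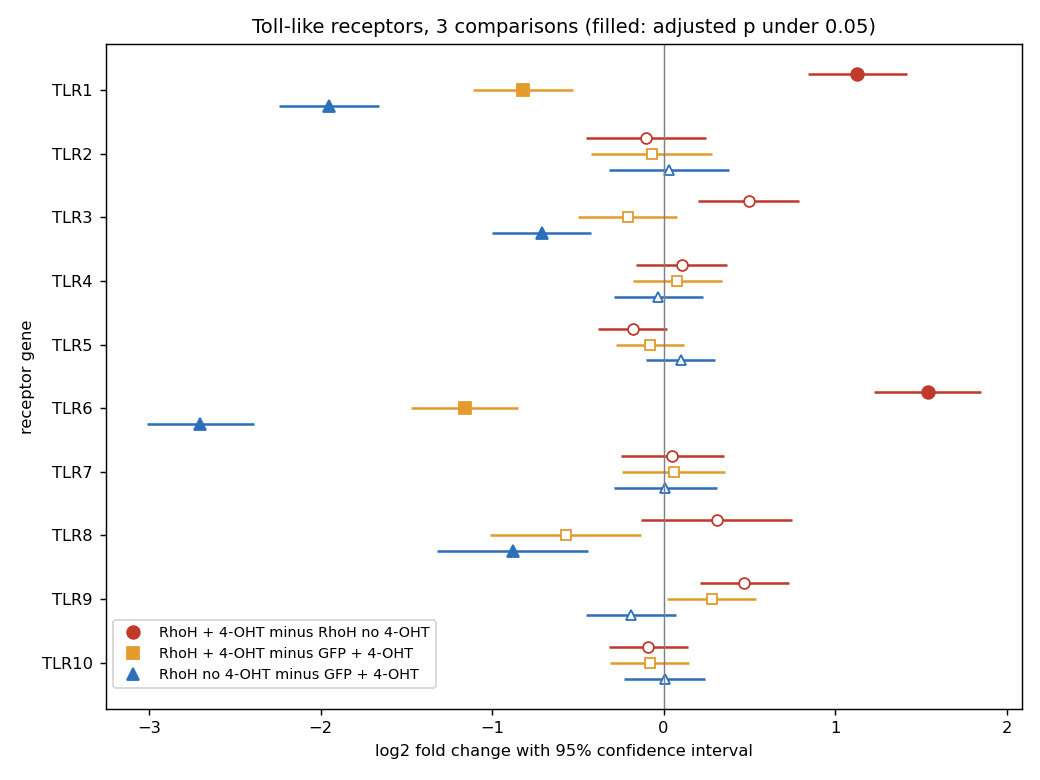
Log2 fold change of each receptor in the 3 comparisons, with its 95% confidence interval from the limma fit. Filled symbols mark an adjusted p under 0.05, as for TLR1 and TLR6 in each comparison and TLR3 and TLR8 in RhoH no 4-OHT against GFP + 4-OHT.

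TLR10, TLR1 and TLR6 lie side by side on chromosome 4 with no other measured protein-coding gene between them. The 5 measured protein-coding neighbours on each side were looked at after the values of the receptors had been seen. With 4-OHT in RhoH cells 1 of the 10 neighbours rose, none fell and 9 did not pass, with log2 fold changes from -0.36 to 0.59, beside 3.78% of all genes called. The 1 called was KLHL5, a kelch family gene on the TLR6 side, the second measured beyond it after TMEM156. KLHL5 averaged 7.58 in RhoH + 4-OHT and 6.99 in RhoH no 4-OHT, and TMEM156 was at 0.35 without a call. Against GFP + 4-OHT, KLHL5 and the transcription factor gene KLF3, next to TLR10, were lower in RhoH + 4-OHT (-0.53 and -0.59). In RhoH no 4-OHT they were lower than in GFP + 4-OHT too (-1.12 and -0.77), as was TMEM156 (-0.59), and RPL9 was higher (0.43). TLR10, between KLF3 and TLR1, was not called in any of these comparisons. Around TLR7 and TLR8 on the X chromosome, 0 of 10 neighbours were called by limma with 4-OHT or between RhoH + 4-OHT and GFP + 4-OHT, and 1, PRPS2, was higher in RhoH no 4-OHT than in GFP + 4-OHT (0.38). Of all genes 4.49% were called between RhoH + 4-OHT and GFP + 4-OHT and 15.3% between RhoH no 4-OHT and GFP + 4-OHT.

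**Figure D3:**
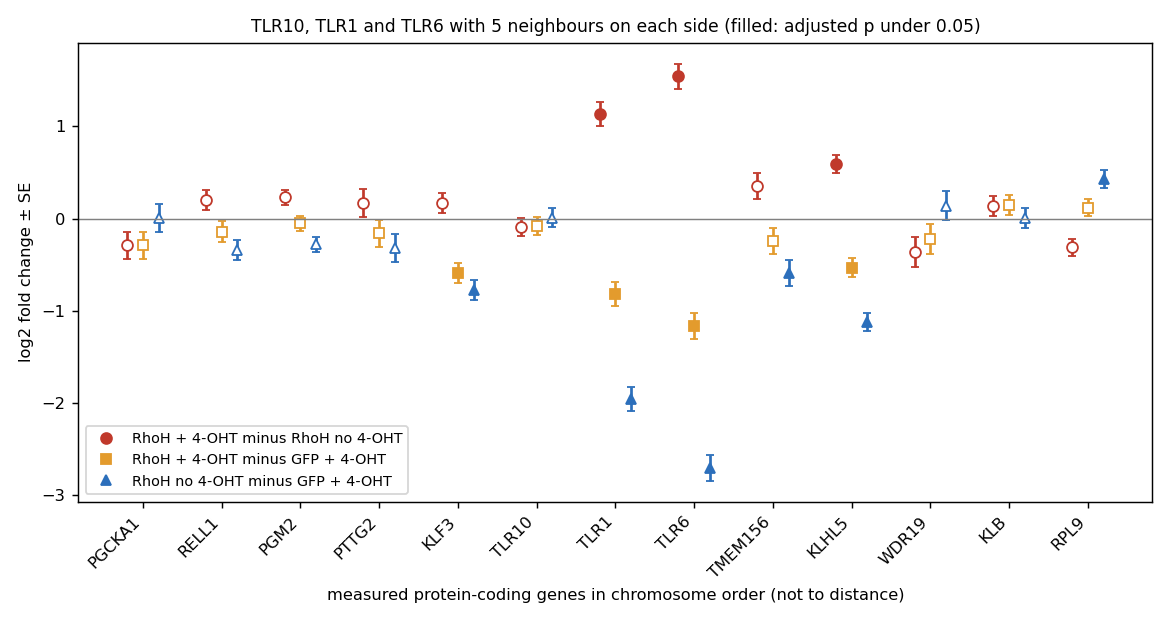
Log2 fold change (with its SE) of TLR10, TLR1 and TLR6 and of the 5 nearest measured protein-coding genes on each side, in chromosome order, in the 3 comparisons. Filled symbols mark an adjusted p under 0.05. The changes of TLR1 and TLR6 exceed those of all 10 neighbours, and TLR10 stays near 0.

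The genes whose profiles over the 9 arrays were closest to those of the called receptors were found among 11901 protein-coding genes, each centred on its own mean. The measure was the root mean square difference on the log2 scale. SEL1L3 (0.102), the B cell adaptor DAPP1 (0.106) and IPCEF1 (0.111) were closest to TLR1. HP, which encodes haptoglobin (0.214), the large ubiquitin ligase RNF213 (0.215) and the nuclear receptor PPARG (0.253) were closest to TLR6, with TLR1 at rank 19. TLR6 was at rank 166 among the genes nearest to TLR1. SPECC1 (0.118), TXLNB (0.125) and the ion channel gene HCN3 (0.128) were closest to TLR3. TSEN34 of tRNA splicing (0.119), JADE3 (0.124) and SUSD6 (0.125) were closest to TLR8. PPARG, like TLR6, had 1 value on all RhoH + 4-OHT arrays, 7.46, against a mean of 5.91 in RhoH no 4-OHT and 8.86 in GFP + 4-OHT.

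Genes of the pathway and of related receptors were taken from 9 lists with 108 symbols, of which 80 were measured. The lists of other TIR-domain receptors (6 measured) and other pattern receptors (11 measured) hold receptors outside the pathway. They held 2 and 3 of the genes called higher with 4-OHT. Their genes are counted with the pathway genes here and below. With 4-OHT in RhoH cells 14 of the 80 rose and 2 fell, or 20.0%, beside 3.78% of all genes. In RhoH + 4-OHT against GFP + 4-OHT 2 were higher and 17 lower (23.8%, beside 4.49%). In RhoH no 4-OHT against GFP + 4-OHT 3 were higher and 31 lower (42.5%, beside 15.3%). The lists were chosen with earlier results of these data known, so these shares are no independent support for a change of the pathway. Of those called with 4-OHT, CD180, IL18R1, IL18RAP and FPR2 had both group means inside the range of the tissue-restricted genes. The median log2 fold changes of all 80 genes were 0.12, -0.10 and -0.24 in the 3 comparisons. The count of 16 with 4-OHT depended on the arrays: it was 10 without RhoH no 4-OHT replicate 1, 7 without RhoH no 4-OHT replicate 3, and 10, 8 and 8 without GFP + 4-OHT replicate 1, 2 or 3. It was 5 when the 6 compared arrays alone were fitted and 7 with all probe sets tested. The GFP + 4-OHT arrays enter this comparison only through the estimate of the spread, which the fit shares over the 3 groups. The SD of deviations from the group mean was 0.090 to 0.096 on those arrays and 0.130 to 0.206 on the RhoH arrays. The shared spread may thus be too small for the 2 RhoH groups. The count of 19 between RhoH + 4-OHT and GFP + 4-OHT was 12, 11 and 10 without GFP + 4-OHT replicate 1, 2 or 3.

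Co-receptors and chaperones moved in both directions. LY96, which encodes MD-2, the part of the TLR4 complex that binds lipopolysaccharide, averaged 6.53 ± 0.42 in RhoH + 4-OHT, against 4.53 ± 0.20 in RhoH no 4-OHT and 5.38 ± 0.0056 in GFP + 4-OHT (SD, n = 3). It was higher with 4-OHT (log2 fold change 2.00, SE 0.18, limma adjusted p = 0.000299) and higher in RhoH + 4-OHT than in GFP + 4-OHT (1.16, SE 0.18, adjusted p = 0.00657). The RhoH no 4-OHT and GFP + 4-OHT means of LY96 lay inside the range of the tissue-restricted genes. That of RhoH + 4-OHT was close to the upper end of the range, 6.52. LY96 was lower in RhoH no 4-OHT than in GFP + 4-OHT (-0.84, limma adjusted p = 0.0115). CD14, which hands lipopolysaccharide to that complex, was at 5.51 ± 0.40 in RhoH + 4-OHT, 5.39 ± 0.26 in RhoH no 4-OHT and 6.86 ± 0.31 in GFP + 4-OHT. It was lower in both RhoH groups than in GFP + 4-OHT (-1.35, adjusted p = 0.00726, and -1.47, adjusted p = 0.00126). UNC93B1, which carries the endosomal receptors to their compartment, fell with 4-OHT (-0.34, adjusted p = 0.0396) and was higher in RhoH no 4-OHT than in GFP + 4-OHT (0.45, adjusted p = 0.00297). CD180, a TLR4 relative without a TIR domain, rose by 0.63 with 4-OHT (adjusted p = 0.0381). The other 6 of the 9 measured members did not pass with 4-OHT, where 3.78% of all genes were called. The calls of CD180 and UNC93B1 with 4-OHT were lost without any 1 of the RhoH no 4-OHT or GFP + 4-OHT arrays and without RhoH + 4-OHT replicate 1, and that of UNC93B1 also without RhoH + 4-OHT replicate 2 (adjusted p up to 0.133 for CD180 and 0.148 for UNC93B1).

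Of 4 measured adaptors, MYD88, the common adaptor of the family, was the 1 called in any comparison. It averaged 7.64 ± 0.18 in RhoH + 4-OHT, against 6.97 ± 0.28 in RhoH no 4-OHT and 8.35 ± 0.039 in GFP + 4-OHT. The log2 fold changes were 0.67 with 4-OHT (SE 0.14, limma adjusted p = 0.0280), -0.71 for RhoH + 4-OHT against GFP + 4-OHT (adjusted p = 0.0193) and -1.38 for RhoH no 4-OHT against GFP + 4-OHT (adjusted p = 0.000113). The call with 4-OHT was lost without RhoH no 4-OHT replicate 1 or 3, RhoH + 4-OHT replicate 1 or 3, or any GFP + 4-OHT array (adjusted p up to 0.0944). That between RhoH + 4-OHT and GFP + 4-OHT was lost without RhoH + 4-OHT replicate 1 or 2 or any GFP + 4-OHT array (adjusted p up to 0.0892). Of 13 measured kinases and ubiquitin ligases, 3 rose and 1 fell with 4-OHT. PELI1 (0.70) and PELI2 (0.55), Pellino ubiquitin ligases that act on IRAK kinases, and the MAP kinase kinase kinase gene MAP3K8 (0.67) rose, and TRAF3 fell (-0.43). PELI2 lost its call with 4-OHT without any 1 array except RhoH + 4-OHT replicate 1 (adjusted p up to 0.0769), and TRAF3 without any 1 except RhoH no 4-OHT replicate 1 and RhoH + 4-OHT replicate 2 (up to 0.181). MAP3K8 lost its call without RhoH + 4-OHT replicate 2 or 3, RhoH no 4-OHT replicate 3 or GFP + 4-OHT replicate 2 (up to 0.0770). In RhoH + 4-OHT against GFP + 4-OHT, TAB2 (-0.71), PELI1 (-0.64) and the IkB kinase gene CHUK (-0.55) were lower. PELI1 lost this call without any 1 GFP + 4-OHT array (adjusted p up to 0.0778) and CHUK without GFP + 4-OHT replicate 2 or 3 (up to 0.0763). In RhoH no 4-OHT against GFP + 4-OHT 8 were lower, led by PELI1 (-1.34), TAB2 (-1.03) and PELI2 (-0.94), and 1 was higher. Of all genes 3.78% were called with 4-OHT. Between RhoH + 4-OHT and GFP + 4-OHT it was 4.49%, and between RhoH no 4-OHT and GFP + 4-OHT 15.3%.

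Of 11 transcription factors of the pathway none was called by limma with 4-OHT (2 at an unadjusted p under 0.05). REL, an NF-kB subunit, and IRF3, which drives interferon beta, were lower in RhoH + 4-OHT than in GFP + 4-OHT (-0.72 and -0.46). Both were also lower in RhoH no 4-OHT than in GFP + 4-OHT (-0.71 and -0.49), as was RELA (-0.39). Of 11 inhibitors, CYLD, a deubiquitinase that restrains NF-kB, rose with 4-OHT (0.58, limma adjusted p = 0.0225), a call lost without RhoH + 4-OHT replicate 1 or 2, RhoH no 4-OHT replicate 3 or GFP + 4-OHT replicate 3 (adjusted p up to 0.0642). CYLD and IRAK3, a kinase-like inhibitor of MYD88 signalling, were lower in RhoH + 4-OHT than in GFP + 4-OHT (-0.93 and -0.52). In that comparison IRAK3 lost its call without RhoH + 4-OHT replicate 1 or 3 or any 1 GFP + 4-OHT array (adjusted p up to 0.113). IRF3 lost its call without RhoH + 4-OHT replicate 1 or 2, RhoH no 4-OHT replicate 3 or any 1 GFP + 4-OHT array (up to 0.202). In RhoH no 4-OHT against GFP + 4-OHT 4 inhibitors were lower and 1 higher, CYLD furthest (-1.50). The shares called over all genes were 3.78%, 4.49% and 15.3% in the 3 comparisons.

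Of 16 listed inflammatory target genes 10 were measured, and IL1B and IL6 were among those that were not. The chemokine gene CCL2 rose with 4-OHT and 9 did not pass. By limma 4 of the 10 were higher and 0 lower with 4-OHT at an unadjusted p under 0.05. CCL2 averaged 8.40 ± 1.21 in RhoH + 4-OHT, against 4.39 ± 0.058 in RhoH no 4-OHT and 10.26 ± 0.13 in GFP + 4-OHT, a log2 fold change of 4.02 with 4-OHT (SE 0.45, limma adjusted p = 0.000984). Its change of -1.85 in RhoH + 4-OHT against GFP + 4-OHT missed the threshold (adjusted p = 0.0504). Between RhoH + 4-OHT and GFP + 4-OHT the chemokine gene CCL4 (-0.97), the prostaglandin synthase gene PTGS2 (-0.94) and the adhesion gene ICAM1 (-0.69) were lower. The call of CCL4 was lost without any 1 array except RhoH + 4-OHT replicate 3, RhoH no 4-OHT replicate 1 and GFP + 4-OHT replicate 2 (adjusted p up to 0.0975), and that of PTGS2 without any 1 except GFP + 4-OHT replicate 1 (up to 0.104). Both genes lay inside the range of the tissue-restricted genes in all groups, as did CCL2 in RhoH no 4-OHT and ICAM1 in both RhoH groups. Between RhoH no 4-OHT and GFP + 4-OHT 5 were lower, among them CCL2 (-5.87) and CXCL8 (-1.95). The list median in that comparison was -0.80. Over all genes 3.78%, 4.49% and 15.3% were called in the 3 comparisons.

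Receptors outside the family that carry a TIR domain also differed. Of 6 measured, the interleukin-18 receptor chain genes IL18R1 (0.66, limma adjusted p = 0.00707) and IL18RAP (0.54, adjusted p = 0.0374) rose with 4-OHT. IL18RAP lost this call without any 1 array except RhoH + 4-OHT replicate 1 (adjusted p up to 0.131). It averaged 5.97 ± 0.18 in RhoH + 4-OHT, against 5.43 ± 0.19 in RhoH no 4-OHT and 7.39 ± 0.027 in GFP + 4-OHT. Both chains and IL1RAP, the shared co-receptor of the interleukin-1 family, were lower in RhoH + 4-OHT than in GFP + 4-OHT (-1.42 for IL18RAP, -0.76 for IL18R1 and -0.65 for IL1RAP). The same 3 were lower in RhoH no 4-OHT than in GFP + 4-OHT (-1.95, -1.42 and -0.95, in the order IL18RAP, IL18R1 and IL1RAP). Over all genes 3.78%, 4.49% and 15.3% were called in the 3 comparisons.

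Of 11 other pattern receptors, FPR2 of the formyl peptide receptors (0.85) rose with 4-OHT, as did RIGI (0.67) and IFIH1 (0.53), both sensors of viral RNA in the cytoplasm. IFIH1 lost this call without any 1 array except RhoH + 4-OHT replicate 1 and RhoH no 4-OHT replicate 2 (adjusted p up to 0.118). FPR2 (-1.77) and RIGI (-0.41) were lower in RhoH + 4-OHT than in GFP + 4-OHT, and STING1 of the DNA sensing pathway was higher (0.54). These calls of RIGI and STING1 were lost without any 1 GFP + 4-OHT array, and that of STING1 also without RhoH + 4-OHT replicate 1 or 3 (adjusted p up to 0.105 for RIGI and 0.113 for STING1). FPR2 (-2.62), RIGI (-1.08), IFIH1 (-0.90) and the DNA sensor gene CGAS (-0.71) were lower in RhoH no 4-OHT than in GFP + 4-OHT. Of 5 endolysosomal genes, CTSS, which encodes the protease cathepsin S, rose with 4-OHT (0.76, limma adjusted p = 0.0133) and was lower in RhoH no 4-OHT than in GFP + 4-OHT (-1.30, adjusted p = 0.000126). The shares called over all genes were 3.78%, 4.49% and 15.3% in the 3 comparisons.

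The pathway calls differed in how they held over 19 alternatives. With 4-OHT, LY96, CCL2, IL18R1 and RIGI kept theirs in each, PELI1, FPR2 and CTSS lost theirs where only the 6 compared arrays were fitted, and the other 9 lost theirs in 6 to 12 alternatives. Without both RhoH replicate 1 arrays the calls of CD180, UNC93B1, MYD88 and TRAF3 with 4-OHT were lost. Between RhoH + 4-OHT and GFP + 4-OHT, MYD88, PELI1, CHUK, IRF3, IRAK3, CCL4, PTGS2, STING1 and RIGI lost theirs in 2 to 12 alternatives, each of them without at least 1 of the GFP + 4-OHT arrays, and the other 10 kept theirs. Between RhoH no 4-OHT and GFP + 4-OHT, of the genes named above RELA lost its call in 6 alternatives and IRF3 in 2, and the rest kept theirs.

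**Figure D4:**
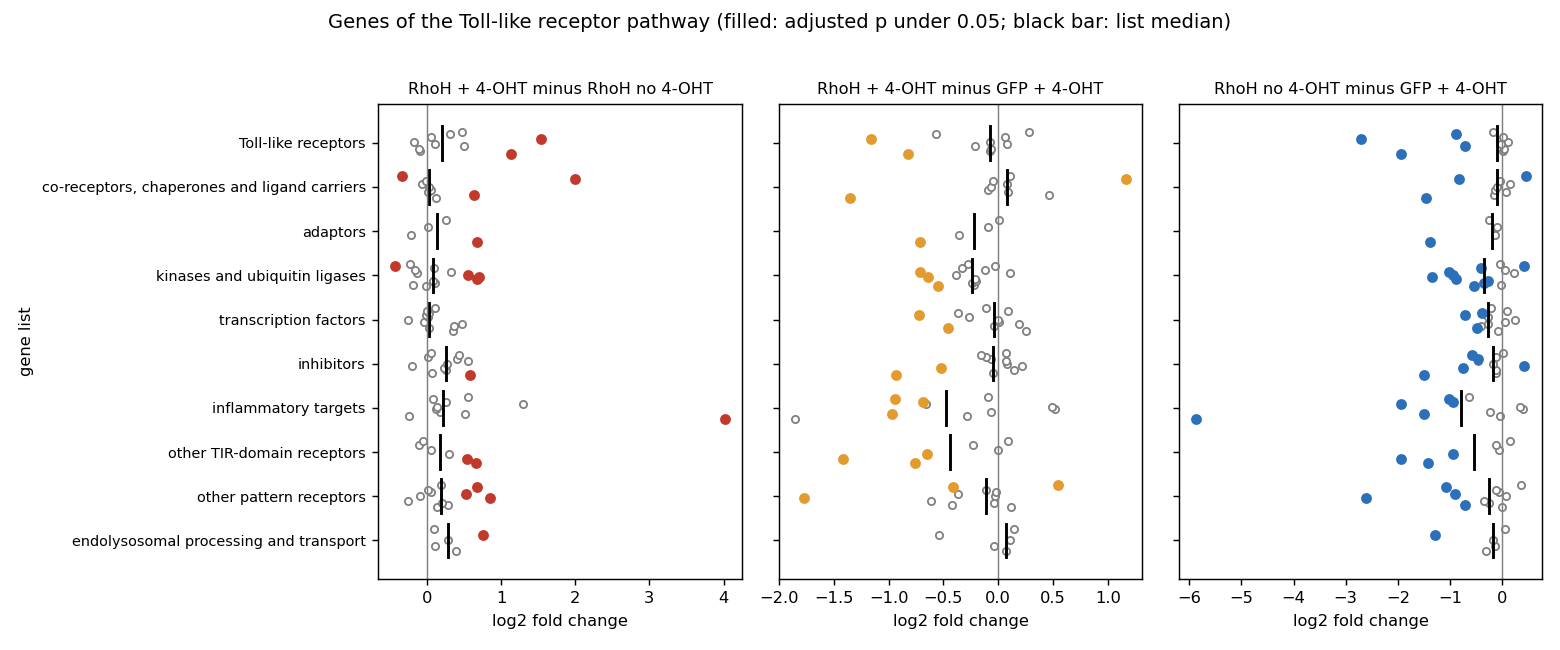
Log2 fold change of each measured gene in the 9 lists and in the receptor family, in the 3 comparisons. The lists include other TIR-domain receptors and other pattern receptors, which lie outside the pathway. Filled points passed an adjusted p under 0.05, open points did not, and a black bar marks the list median. Scales differ between the panels. Most filled points lie right of 0 with 4-OHT in RhoH cells and left of 0 in both comparisons with GFP + 4-OHT.

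Some blood cell markers were called in the same comparisons, where 3.78% of all genes were called with 4-OHT, 4.49% between RhoH + 4-OHT and GFP + 4-OHT and 15.3% between RhoH no 4-OHT and GFP + 4-OHT. The mean log2 signal of 7 measured monocyte and macrophage markers (of 10 listed) ran from 6.20 to 6.44 in RhoH + 4-OHT, 6.07 to 6.21 in RhoH no 4-OHT and 6.49 to 6.68 in GFP + 4-OHT. CD68, a lysosomal protein of macrophages, rose with 4-OHT (1.11, limma adjusted p = 0.000834), and the other 6 did not pass. Against GFP + 4-OHT, 1 of the 7 was lower in RhoH + 4-OHT (CD14) and 3 in RhoH no 4-OHT (CD14, CD68 and FCN1). CD163, VCAN and MARCO read within the range of the tissue-restricted genes in all 3 groups, and CD14 did in both RhoH groups. The 5 measured promyelocyte markers ran from 11.65 to 11.85 in RhoH + 4-OHT, 12.06 to 12.09 in RhoH no 4-OHT and 10.52 to 10.54 in GFP + 4-OHT. All 5 were higher in each RhoH group than in GFP + 4-OHT, and 1, CTSG, fell with 4-OHT in RhoH cells (-0.83). Of 3 measured eosinophil markers (of 7), EPX and CLC were higher in each RhoH group than in GFP + 4-OHT and PRG3 in RhoH no 4-OHT, and none was called with 4-OHT (1 at an unadjusted p under 0.05). The mean of the 3 ran from 7.40 to 7.95 in RhoH + 4-OHT, 7.60 to 8.22 in RhoH no 4-OHT and 6.26 to 6.29 in GFP + 4-OHT. None of 5 neutrophil markers was called in any comparison (2, 0 and 1 at an unadjusted p under 0.05). The 3 measured B cell and plasmacytoid dendritic cell markers and the 2 T and NK cell markers were not called either, at means of 5.80 to 6.29 over all arrays. The part of these differences in the receptor results was not tested.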

How the data were processed

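Total RNA of 9 cultures was hybridised to Affymetrix whole-transcript arrays. The authors deposited log2 values for 43550 probe sets, made with Affymetrix Power Tools and RMA per the submitters' processing notes. Their versions are not given in the sources used here. Signals near background are compressed by this method. Values were used as deposited. The platform annotation named 15659 probe sets with 1 gene, 0 with several and 27891 with none, and symbols were updated through RefSeq GRCh38.p14. The brightest probe set of a gene over the 9 arrays was kept, leaving 14778 genes. The files name no build, so coordinates are RefSeq's and are given for promoters alone.

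Groups came from the sample titles. limma 3.58.1 under R 4.3.3 tested the 3 comparisons, with 3 group means over all 9 arrays, default moderation and Benjamini-Hochberg adjustment over 14778 genes. A gene was called, or said to rise or fall, at an adjusted p under 0.05. Fold changes come from this fit, and n is 3 arrays a group, a number that limits the precision. In data simulated for the induction over 14778 genes, 195 of 200 genes changed by 1 log2 unit were recovered. The simulated arrays were independent and had the same spread in all groups, and recovery of smaller changes was not tested. The simulated SD of each gene was drawn towards the median SD. The deposited GFP + 4-OHT arrays deviated less from their group means (SD 0.090 to 0.096) than the RhoH arrays (0.130 to 0.206). Recovery under such unequal spread was not tested. The text names all 10 receptors, at most 6 called genes per list and comparison, and 3 closest profiles per called receptor. Members and lists were chosen with earlier results of these data known, and the neighbours and promoter patterns after seeing the receptors' values. Same-numbered arrays of different groups had correlations of deviations from -0.026 to 0.543, and other-numbered arrays from -0.496 to 0.395. Between the 2 RhoH groups the same-numbered values were 0.543, 0.368 and 0.065 for replicates 1, 2 and 3. Shared conditions of same-numbered arrays are thus not excluded. The main fit did not take the numbers as pairs, and a fit with the number as a block is given below. The labels give no batch.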

Additional observations from a re-analysis of the deposited data

How the results depend on the processing

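The fits were repeated under 19 alternatives. TLR1 and TLR6 kept their calls in all of them in the 3 comparisons, and TLR3 kept its call between RhoH no 4-OHT and GFP + 4-OHT in the 18 that tested it. The filter on the dimmest 25% left out TLR3, TLR7 and TLR10. Of 561 receptor values 525 kept direction and side of the threshold, 3 lost a call, all for TLR8, 6 gained one and 27 changed sign, all uncalled and near 0. The 6 gained calls were those of TLR3 (1 alternative) and TLR9 (2) with 4-OHT, of TLR8 in RhoH + 4-OHT against GFP + 4-OHT (2) and of TLR9 in RhoH no 4-OHT against GFP + 4-OHT (1). With array weights the log2 fold changes with 4-OHT turned to -0.01 for TLR4 and -0.01 for TLR7, those of RhoH + 4-OHT against GFP + 4-OHT to 0.05 for TLR2 and -0.04 for TLR7, and those of RhoH no 4-OHT against GFP + 4-OHT to 0.04 for TLR4 and -0.03 for TLR7. Quantile normalization turned the last comparison to 0.06 for TLR4, -0.06 for TLR7 and -0.06 for TLR10. Leaving out both RhoH replicate 1 arrays gave 0.02 for TLR2 in RhoH + 4-OHT against GFP + 4-OHT, and 0.07 for TLR4 and -0.02 for TLR7 in RhoH no 4-OHT against GFP + 4-OHT. Leaving out 1 array at a time, the changes with 4-OHT ran from -0.27 to 0.03 for TLR2, 0.00 to 0.18 for TLR4 and -0.11 to 0.14 for TLR7. Those of RhoH + 4-OHT against GFP + 4-OHT ran from -0.17 to 0.02 for TLR2, -0.03 to 0.15 for TLR4 and -0.09 to 0.15 for TLR7. Those of RhoH no 4-OHT against GFP + 4-OHT ran from -0.10 to 0.20 for TLR2, -0.09 to 0.07 for TLR4, -0.06 to 0.07 for TLR7 and -0.04 to 0.06 for TLR10. The cause of these changes was not tested.

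The number of pathway genes called with 4-OHT, 16, was 7 with all probe sets tested and 5 with the 6 compared arrays alone, and 7 to 11 with 1 array left out. Between RhoH + 4-OHT and GFP + 4-OHT, 19 became 10 to 21 with 1 array left out. Over all genes, the 558 called with 4-OHT became 953 after quantile normalization, 950 with array weights, 314 with all probe sets, 190 with the 6 arrays alone and 304 to 666 with 1 array left out. The 664 between RhoH + 4-OHT and GFP + 4-OHT became 403 with all probe sets, 1176 with array weights and 279 to 861 with 1 array left out. The 2258 between RhoH no 4-OHT and GFP + 4-OHT became 4326 with array weights and 1450 to 2670 with 1 array left out. No scaling moved the median of all genes by more than 0.03. With the replicate number as a block, 2, 2 and 4 receptors and 684, 820 and 2558 genes were called in the 3 comparisons, and no receptor call changed. The block gave 13, 21 and 35 pathway genes, and the calls of UNC93B1, TRAF3 and IL18RAP with 4-OHT were lost (adjusted p 0.0545, 0.0535 and 0.0562). Low signal limits most receptors: the means of TLR3, TLR5, TLR7, TLR8 and TLR10 in all groups, of TLR6 in both RhoH groups and of TLR1 in RhoH no 4-OHT lay inside the range of the tissue-restricted genes.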
